A study of Homo sapiens with 6 samples.

Results

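MHC class I genes and the genes that load peptides onto their products were examined in HEK293 cells, an established line from human embryonic kidney. The members were 9 genes chosen by symbol or Entrez gene number: HLA-B, HLA-C, HLA-E, HLA-F, HLA-G, B2M, TAP1, TAP2 and TAPBP. They were read by 30 probe sets, out of 45033 probe sets and 23596 gene symbols on the array. HLA-B had 3 probe sets, HLA-C 6, HLA-E 1, HLA-F 3, HLA-G 7, B2M 1, TAP1 1, TAP2 4 and TAPBP 4.

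Total RNA was measured on 6 single-colour NimbleGen arrays, 2 in each of 3 groups. All cells received an shRNA by transfection for about 40 hours and then conditioned medium for 7 hours. The first group had control shRNA and control medium, the second control shRNA and Wnt3a medium, and the third SET8 shRNA and Wnt3a medium. SET8 (gene symbol KMT5A) is the enzyme that adds 1 methyl group to lysine 20 of histone H4, and Wnt3a is a secreted ligand that activates the Wnt pathway through beta-catenin. The SET8 comparison applies to Wnt3a-treated cells, since arrays of SET8 shRNA in control medium were not analysed here. Whether the replicates were separate cultures is not in the labels, so the spread behind each p-value is that between these samples and may be technical.

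Class I molecules display peptides from inside the cell to T cells and natural killer cells. Each consists of a heavy chain, encoded by an HLA class I gene, and the light chain beta-2-microglobulin, encoded by B2M. Peptides made by the proteasome are pumped into the endoplasmic reticulum by the transporter formed by TAP1 and TAP2, and tapasin, the product of TAPBP, bridges the transporter to the empty class I molecule. Most nucleated cells express these genes at a basal level, and interferons raise them through promoter elements bound by IRF and STAT factors, by NF-kappa B and by the NLRC5 and RFX complex.

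The stretches before the annotated transcription starts of 4 members are shown because they hold matches to short motifs of elements known to regulate class I genes. That of IFIT1 is shown because it is an antiviral interferon-stimulated gene with which the members are compared. Each is the 250 bases before the start, 5′ to 3′ on the gene's strand, from RefSeq on GRCh38.p14. The array files themselves use build hg18, so these coordinates are not those of the probes. Capitals mark matches on either strand to any of 4 short motifs: the core of the interferon-stimulated response element (GAAANNGAA), a kappa B-like site (GGGANNNCC), the CRE-like core of the X2 box (TGACG) and the Y box core (CCAAT). The stretches lie at chr6:31357180-31357429 (minus strand) for HLA-B, chr15:44711267-44711516 (plus) for B2M, chr6:32853705-32853954 (minus) for TAP1, chr6:33314079-33314328 (minus) for TAPBP and chr10:89392373-89392622 (plus) for IFIT1.
HLA-B: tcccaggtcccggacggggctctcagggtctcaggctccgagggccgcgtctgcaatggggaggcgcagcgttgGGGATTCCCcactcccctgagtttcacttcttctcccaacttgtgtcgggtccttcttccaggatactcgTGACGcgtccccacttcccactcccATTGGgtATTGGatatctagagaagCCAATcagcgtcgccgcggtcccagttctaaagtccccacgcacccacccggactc
B2M: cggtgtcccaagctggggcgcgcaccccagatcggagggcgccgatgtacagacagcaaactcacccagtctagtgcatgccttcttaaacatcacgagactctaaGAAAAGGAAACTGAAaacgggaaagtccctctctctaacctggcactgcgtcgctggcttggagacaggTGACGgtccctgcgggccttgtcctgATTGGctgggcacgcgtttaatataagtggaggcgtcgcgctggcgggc
TAP1: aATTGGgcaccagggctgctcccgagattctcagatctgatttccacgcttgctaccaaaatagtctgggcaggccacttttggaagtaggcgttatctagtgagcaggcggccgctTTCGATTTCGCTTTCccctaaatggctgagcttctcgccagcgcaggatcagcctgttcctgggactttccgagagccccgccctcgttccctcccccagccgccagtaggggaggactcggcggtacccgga
TAPBP: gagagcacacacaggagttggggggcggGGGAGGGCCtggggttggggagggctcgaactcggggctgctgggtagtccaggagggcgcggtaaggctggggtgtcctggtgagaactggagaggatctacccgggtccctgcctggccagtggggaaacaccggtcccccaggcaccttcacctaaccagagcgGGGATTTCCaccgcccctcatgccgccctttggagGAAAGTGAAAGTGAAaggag
IFIT1: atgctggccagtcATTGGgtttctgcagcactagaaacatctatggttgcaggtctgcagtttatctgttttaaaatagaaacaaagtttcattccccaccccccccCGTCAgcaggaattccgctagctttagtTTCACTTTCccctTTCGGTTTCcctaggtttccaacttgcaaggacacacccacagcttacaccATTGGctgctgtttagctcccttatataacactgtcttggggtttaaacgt

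Windows from 250 bases before to 50 bases after the start were held for 8 of the 9 members, HLA-E being the other one. Where a gene had several windows, the one furthest upstream was used (HLA-G had 3 and TAP1 had 2). The interferon-stimulated response element core was found in 5 of the 8 windows, those of HLA-F, B2M, TAP1, TAP2 and TAPBP, and in 8.1% of all 35116 windows of this length. In B2M, TAP1 and TAPBP 2 matches overlapped, starting at -144 and -138, at -133 and -127, and at -20 and -14 from the start. HLA-F had 1 match at -155 and TAP2 had 1 at -58. IFIT1 also had 2, at -115 and -102. The kappa B-like motif was found in 2 of the 8 windows (HLA-B at -176, and TAPBP at -222 and -55), against 22.9% of all windows. The TAP1 and B2M stretches also hold gggactttcc and gggaaagtcc, which are longer than this string and were neither counted nor marked. The TGACG core was found in 4 (HLA-B, HLA-C, B2M and TAP2), against 24.6%, and CCAAT in 5 (HLA-B, HLA-C, HLA-F, B2M and TAP1), against 34.6%. A match shows only that the letters are there, and binding was not measured. The motifs were fixed strings, so a window without a match may still hold a variant of an element.

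Arrays were alike in scale: array medians lay between 7.63 and 7.79 on the log2 intensity scale, and the random control probes between 4.66 and 4.84. Replicates correlated at 0.972, 0.976 and 0.985 across all probe sets on the array, tested or not. KMT5A, the gene targeted by the shRNA, read 11.03 and 10.75 in control medium, 11.20 and 10.53 in Wnt3a medium, and 8.97 and 9.65 with SET8 shRNA on its brighter probe set (AY064546), so both SET8 arrays lay below all 4 others. Its difference between SET8 and control shRNA in Wnt3a medium was -1.56 on the log2 scale (SE 0.34, adjusted p = 0.24, limma with Benjamini-Hochberg adjustment), which did not pass the threshold of 0.05. Of the 8 line markers listed, none lay at or below the array median on all 6 arrays, and their summed linear intensity ranged from 59125 to 65981. PAX8 was nevertheless too dim to be tested (6.82 to 7.85 over the arrays), and PAX2 lay near the array medians (7.32 to 8.13). KRT8 (14.39 to 14.66) and VIM (13.64 to 14.42) were the brightest and weigh most in the sum. Of 12 blood and antigen-presenting cell markers, 4 lay at or below the array median on every array, among them PTPRC, the pan-leukocyte marker CD45, and HLA-DRA, the class II alpha chain. The sum of all 12 ranged from 11990 to 18291 in control medium, 12751 to 18592 in Wnt3a medium and 13309 to 19504 with SET8 shRNA. Most of it came from the class II genes HLA-DPB1 (12.61 to 13.63 over the arrays, log2) and HLA-DRB1 (11.49 to 12.52), the brightest of the list. HLA-DRA read only 5.16 to 6.76, and which transcripts the class II probe sets read was not tested. Single markers of this list stood apart within it: with SET8 shRNA, CD68 (-1.07, SE 0.26) and HBA1 (-1.65, SE 0.38) lay below all 4 control shRNA arrays and HLA-DPA1 (1.44, SE 0.29) above them. Under control shRNA, CD4 differed by -1.36 (SE 0.26) and CD14 by 0.73 (SE 0.27) between Wnt3a and control medium. CD4 passed the filter only through control medium arrays and CD14 only through Wnt3a medium arrays, where each was higher. The sum of 7 fibroblast markers ranged from 6000 to 6288, 6200 to 7062 and 4546 to 4961 in the same order of groups. Most of it came from COL1A1 (11.99 to 12.70), 1 of 3 tested. Between Wnt3a and control medium under control shRNA, COL1A1 differed by 0.28 (SE 0.23), COL1A2 by -2.29 (SE 0.40) and COL3A1 by -0.85 (SE 0.34). The other tested COL3A1 probe set gave -0.04. On the probe sets used, COL1A2 and COL3A1 passed the filter only through control medium arrays, where they were higher. The part of these markers in the results was not tested.

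All 30 probe sets of the members passed the filter on dim probe sets (above the array median on at least 2 arrays). Except for 1 probe set of HLA-F, those of the HLA genes lay between the 89.4th and 99.9th percentile of their array. Percentiles describe where a signal lay on the array and do not order the transcripts, since probes differ in how strongly they bind. The class I heavy chain genes are close copies of each other, so a probe set named for one may also read another, and which transcripts each set reads was not tested. In bulk RNA, a change in the level per cell and a change in the share of cells expressing a gene cannot be told apart.

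HLA-B and HLA-C, the classical heavy chains that present peptides to cytotoxic T cells, were bright in every array and nearly level across the groups. HLA-B (NM_005514, chromosome 6, 31429627 to 31432914, hg18) read 14.95 and 14.76 with control shRNA in control medium, 14.99 and 14.90 with the same shRNA in Wnt3a medium, and 15.14 and 14.87 with SET8 shRNA. The groups overlapped, and the order of the group means (14.86 ± 0.13, 14.94 ± 0.06 and 15.01 ± 0.19, SD, n = 2 each) had no neighbours that differed beyond their spread. The difference between SET8 and control shRNA was 0.06 (SE 0.23, 95% interval -0.48 to 0.61).

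HLA-C (CR598918, chromosome 6, 31344549 to 31347842, hg18) read 15.22 and 15.16 in control medium, 15.29 and 15.15 in Wnt3a medium, and 15.16 and 15.18 with SET8 shRNA. All 6 values lay within 0.14 of each other on the log2 scale. Its pooled SD within groups, 0.06, was smaller than that of all but 1.85% of the tested probe sets. The SET8 difference was -0.05 (SE 0.22, 95% interval -0.57 to 0.47). The brightest signal on each array was 15.54 to 15.77, so HLA-B and HLA-C lay close to the top of the scale, and whether the signal there still follows the amount of RNA was not tested.

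The other 2 probe sets of HLA-B differed by 0.03 and 0.23 in the SET8 comparison, with the same sign as the first. The other 5 of HLA-C ranged from -0.10 to 0.35 and were split in sign, with BC008457 at 0.35 (13.04 and 12.83 with control shRNA, 13.42 and 13.16 with SET8 shRNA) and X58536 at -0.10. Of the 6 HLA-C probe sets, 3 lay above 0 and 3 below.

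HLA-E, HLA-F and HLA-G are the nonclassical class I genes, which are less variable and are recognised by inhibitory receptors of natural killer and other cells. HLA-E presents peptides from the leader sequences of other class I chains to the CD94/NKG2A receptor. Its probe set (NM_005516, chromosome 6, 30565249 to 30569077, hg18) read 12.77 and 12.73 in control medium, 12.76 and 12.83 in Wnt3a medium, and 12.74 and 12.58 with SET8 shRNA. Both SET8 arrays lay just below both control shRNA arrays in Wnt3a medium, by -0.14 on average (SE 0.22, 95% interval -0.65 to 0.38), but 1 of them lay within the range of the control medium arrays.

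HLA-F had the largest difference among the brightest probe sets of the 9 genes in the SET8 comparison. BC062991 (chromosome 6, 29799215 to 29802259, hg18) read 13.80 and 13.96 in control medium, 13.42 and 13.86 in Wnt3a medium, and 14.31 and 13.89 with SET8 shRNA. Both SET8 arrays lay above both control shRNA arrays in Wnt3a medium, the nearest pair (13.89 and 13.86) almost touching, while the lower SET8 value lay between the control medium arrays. The difference was 0.46 (SE 0.27, 95% interval -0.18 to 1.10, adjusted p = 0.85, limma with Benjamini-Hochberg adjustment). It was 0.24 without Wnt3a replicate 1 and 0.25 without SET8 replicate 1, and in each of these cases TAP2 (0.49 and 0.66) and TAP1 (-0.25 and -0.50) had differences larger in size, so the ranking rests on single arrays. Another HLA-F probe set, NM_018950, differed by 0.18, and the third, BC009260, by 0.28.

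BC009260 was the dimmest probe set of the HLA genes, between the 52.6th and 64.8th percentile of its array, and its span on hg18 (29799163 to 29803051) contains those of the other HLA-F sets. It read 7.99 and 8.90 in control medium, 8.65 and 9.14 in Wnt3a medium, and 9.02 and 9.33 with SET8 shRNA. Its difference between the third group (SET8 shRNA, Wnt3a medium) and the first (control shRNA, control medium), 0.73 (SE 0.36, 95% interval -0.10 to 1.57, adjusted p = 0.55, limma with Benjamini-Hochberg adjustment), was the largest of any member probe set in any of the 3 comparisons. The 2 control medium values alone stood 0.91 apart.

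HLA-G, known as a class I gene of the placenta, was represented by 7 probe sets. The brightest, BC020891, read 14.20 and 14.44 in control medium, 14.06 and 14.49 in Wnt3a medium, and 13.86 and 14.50 with SET8 shRNA, so replicate 2 was higher in every group and the groups overlapped. The files place it on chromosome 6 at 30082342 to 30085710 (hg18), away from the 4 other HLA-G sets on that chromosome, which lie between 29903496 and 29906892, and its name is therefore the least certain. The remaining 2 sets lie on an alternative haplotype sequence of chromosome 6. NM_002127, the RefSeq set, read 13.87 and 13.76, then 13.80 and 13.67, then 13.80 and 13.76 in the same order, all within 0.20 of each other. In the SET8 comparison the 7 sets ranged from -0.42 (M32800) to 0.33 (M90684), with 5 above 0 and 2 below, so the sets named for HLA-G did not share a direction.

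B2M encodes the light chain shared by all class I molecules and is the only member outside chromosome 6. Its probe set (NM_004048, chromosome 15, 42790976 to 42797649, hg18) read 11.69 and 11.77 in control medium, 11.82 and 11.77 in Wnt3a medium, and 11.81 and 11.46 with SET8 shRNA. The first SET8 array lay among the control shRNA arrays and the second below all 4 of them. The SET8 difference was -0.16 (SE 0.24, 95% interval -0.72 to 0.39). It was 0.01 without SET8 replicate 2 and -0.34 without SET8 replicate 1.

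**Figure D1:**
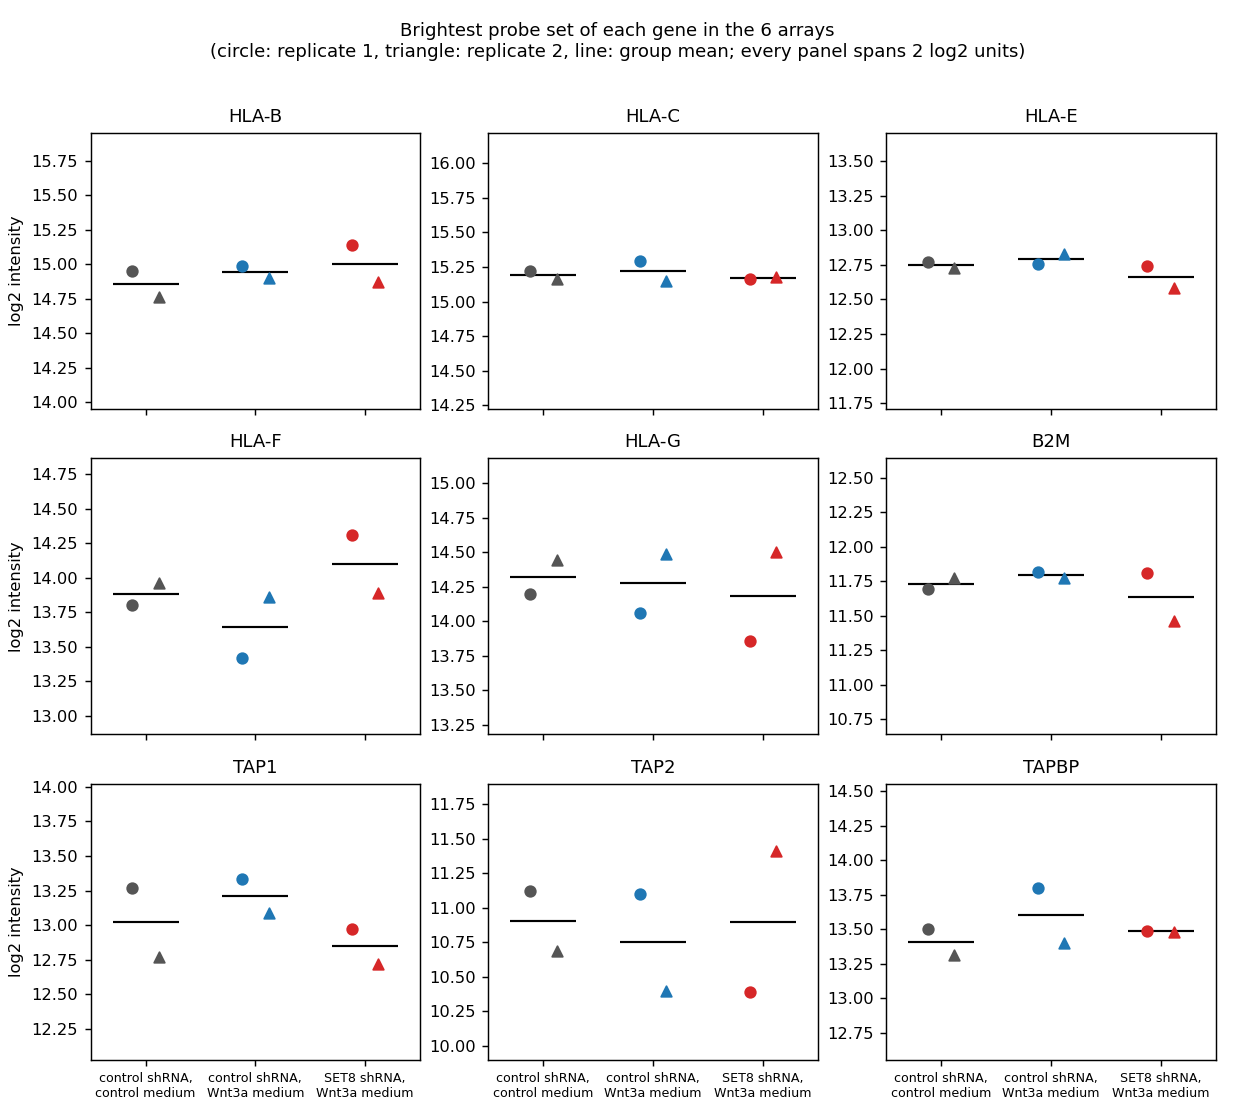
Log2 intensity (vertical axes, each spanning 2 log2 units) of the brightest probe set of each of the 9 genes in the 3 groups (horizontal axes), with 1 point per array and a line at the group mean. The values of HLA-C lie within 0.14 of each other, HLA-F and TAP1 show the largest SET8 differences (0.46 and -0.37), and the SET8 arrays of TAP2 stand 1.03 apart. HLA-G is shown by BC020891, its set of least certain name.

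By the brightest probe set of each gene, TAP1 had the lowest value in the SET8 comparison. It encodes 1 of the 2 chains of the peptide transporter. Its probe set (NM_000593, chromosome 6, 32920963 to 32929726, hg18) read 13.27 and 12.77 in control medium, 13.33 and 13.09 in Wnt3a medium, and 12.97 and 12.72 with SET8 shRNA. Both SET8 arrays lay below both control shRNA arrays in Wnt3a medium, but the first of them lay between the arrays in control medium. The difference was -0.37 (SE 0.27, 95% interval -1.0 to 0.27, adjusted p = 0.91, limma with Benjamini-Hochberg adjustment), and that from control shRNA in control medium was -0.17 (SE 0.27). Leaving out control medium replicate 1 turned the last value to 0.08, and leaving out replicate 2 gave -0.43.

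TAP2, the partner chain, varied more between replicates than between groups. AF105151 (chromosome 6, 32897587 to 32914482, hg18) read 11.12 and 10.69 in control medium, 11.10 and 10.40 in Wnt3a medium, and 10.39 and 11.41 with SET8 shRNA. In both control shRNA groups replicate 1 was the higher array, and with SET8 shRNA replicate 2 was. NM_018833 and BC002751 showed the same order, with SET8 values of 10.27 and 11.13, and of 10.09 and 11.12. Pooled SDs of these 3 sets were 0.54, 0.56 and 0.61, larger than those of 88.3%, 89.6% and 92.3% of the tested probe sets. The fourth, NM_000544, had the same order and was dimmer and steadier, with SET8 values of 9.42 and 9.45 and a pooled SD of 0.27. SET8 differences of the 4 sets ranged from -0.11 to 0.14, with SEs of 0.28 to 0.45.

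TAPBP encodes tapasin, and its probe sets differed in how far replicates stood apart. NM_003190 (chromosome 6, 33375448 to 33389967, hg18) read 13.50 and 13.31 in control medium, 13.80 and 13.40 in Wnt3a medium, and 13.49 and 13.48 with SET8 shRNA. The SET8 difference was -0.11 (SE 0.25, 95% interval -0.68 to 0.47). The other 3 sets begin further along the chromosome, at 33379391 to 33380022, and share its end at 33389967.

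Those 3 sets split the control shRNA arrays by replicate. NM_172209 read 12.94 and 11.65 in control medium, 13.34 and 11.88 in Wnt3a medium, and 12.49 and 12.57 with SET8 shRNA. NM_172208 read 12.76 and 11.45, then 13.05 and 11.41, then 12.21 and 12.28, and BC080574 read 12.33 and 11.45, then 12.81 and 11.47, then 11.88 and 12.01. In each of them both SET8 arrays lay between the high replicate 1 and the low replicate 2 of both control shRNA groups. Their pooled SDs (0.80, 0.86 and 0.66) exceeded those of 97.4%, 98.2% and 94.2% of the tested probe sets, and their SET8 differences of -0.08, 0.01 and -0.19 had SEs of 0.47 to 0.59. The gene lies on the minus strand, so the annotated spans of these 3 sets leave out a stretch at its 3′ end that the span of NM_003190 includes. Where the probes of each set lie within these spans was not available. The part of transcript isoforms or of RNA quality in this split was not tested.

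**Figure D2:**
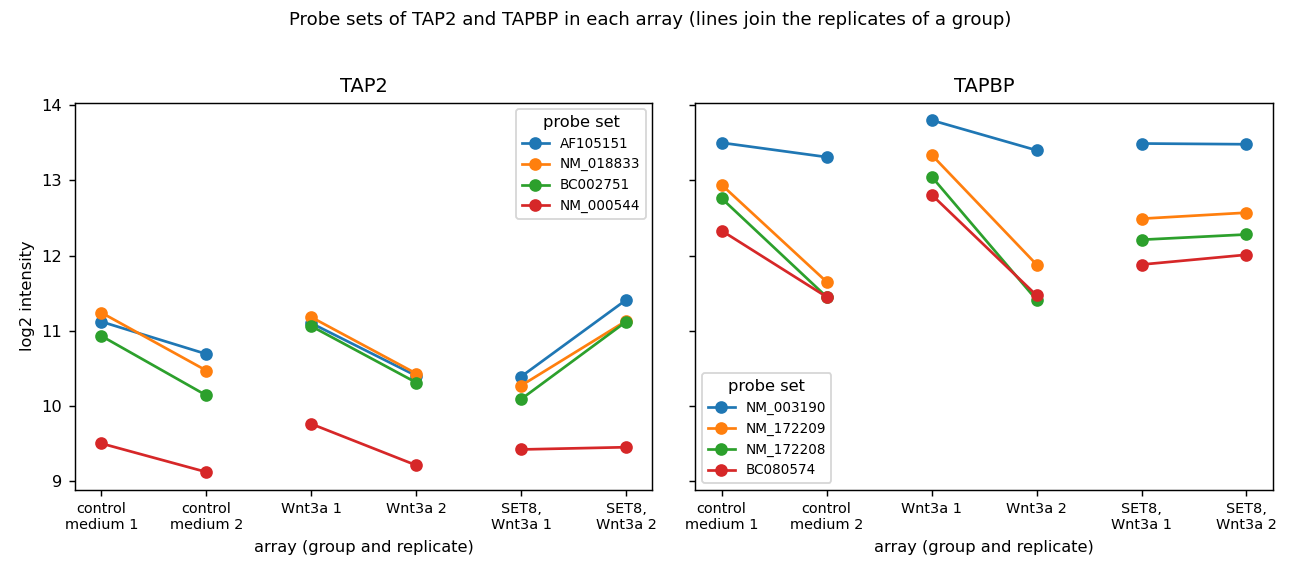
Log2 intensity (vertical axis) of the 4 probe sets of TAP2 (left) and of TAPBP (right) on each array (horizontal axis), with lines joining the 2 replicates of a group. For TAPBP, 3 sets fall from replicate 1 to replicate 2 in both control shRNA groups while NM_003190 stays between 13.31 and 13.80, and for TAP2, all 4 sets are higher in replicate 1 with control shRNA and in replicate 2 with SET8 shRNA, NM_000544 only slightly with SET8 shRNA (9.42 and 9.45).

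Over all members, replicate 1 was the higher array for 25 of the 30 probe sets in control medium, for 20 in Wnt3a medium and for 17 with SET8 shRNA. More than 2-fold between replicates separated 2, 3 and 2 of them (6.67%, 10% and 6.67%), against 6.87%, 8.98% and 1.86% of all tested probe sets. The median replicate difference of the members was 0.21, 0.29 and 0.26 on the log2 scale, against 0.33, 0.36 and 0.27 over all tested probe sets.

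No probe set of the 9 genes passed an adjusted p of 0.05 in any of the 3 comparisons (limma on all 6 arrays with Benjamini-Hochberg adjustment over 23808 probe sets). Among all probe sets 0%, 0% and 0.0504% were called, in the order Wnt3a against control medium, SET8 against control shRNA (both in Wnt3a medium), and the third group against the first, called the combined comparison here. The last share is 12 probe sets. At an unadjusted p under 0.05 the count of member probe sets was again 0 of 30 in each, where 2.14%, 7.16% and 10.6% of all tested probe sets passed. The smallest adjusted p of a member was 1 for Wnt3a, 0.85 for SET8 and 0.55 for the combined comparison.

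The groups did not overlap for 4 of the 30 probe sets in the Wnt3a comparison (1 higher and 3 lower, 13.3%), against 21.1% of all tested probe sets. In the SET8 comparison this was so for 8 (4 higher and 4 lower, 26.7%), against 34.1%, and in the combined comparison for 4 (3 higher and 1 lower, 13.3%), against 39.7%. These shares of the members lie below those of all probe sets, and no test was made of the difference, because probe sets of a gene share its transcript and the class I genes share sequence.

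In the comparison of Wnt3a with control medium under control shRNA, 16 of the 30 probe sets lay above 0 and 14 below. The differences ranged from -0.41 (M90686 of HLA-G) to 0.45 (BC009260 of HLA-F), with a median of 0.04, against 0.02 over all tested probe sets. By the brightest probe set of each gene 6 genes lay above 0 and 3 below, and the values ran from -0.24 for HLA-F to 0.20 for TAPBP. TAP1 stood at 0.19 (SE 0.27), B2M at 0.07 (SE 0.24) and HLA-C at 0.04 (SE 0.22). All 3 probe sets of HLA-B (0.09 to 0.16) and all 4 of TAPBP (0.12 to 0.31) lay above 0, while HLA-C, HLA-F, HLA-G and TAP2 had probe sets on both sides.

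In the SET8 comparison 16 probe sets also lay above 0 and 14 below, with a range of -0.42 to 0.46 and a median of 0.02, against 0.01 over all tested probe sets. By gene 3 lay above 0 (HLA-F, TAP2 and HLA-B) and 6 below, with a median of -0.10. That median is the HLA-G value on BC020891, its set of least certain name, and the RefSeq set NM_002127 of HLA-G gave 0.04. The combined comparison ran from -0.34 to 0.73 over probe sets, with a median of 0.06, against 0.02 for all. The comparisons share arrays (the Wnt3a arrays with control shRNA enter the first and the second with opposite sign), so an opposite sign in the first and second, as for HLA-F (-0.24 and 0.46) and TAP1 (0.19 and -0.37), is given as values only.

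The precision of 2 arrays a group bounds what could have been seen. The 95% intervals lay within a 2-fold change in either direction for 8 of the 9 genes by their brightest probe set in the Wnt3a comparison, for 7 in the SET8 comparison and for 9 in the combined one. Over probe sets this held for 21, 19 and 24 of the 30. The narrowest interval in the SET8 comparison was -0.57 to 0.47 (CR598918 of HLA-C) and the widest -1.37 to 1.40 (NM_172208 of TAPBP), so a change of 2-fold is outside the interval for that HLA-C set and inside it for that TAPBP set. The median size of the member differences was 0.12, 0.12 and 0.13, against 0.15, 0.22 and 0.24 over all tested probe sets.

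**Figure D3:**
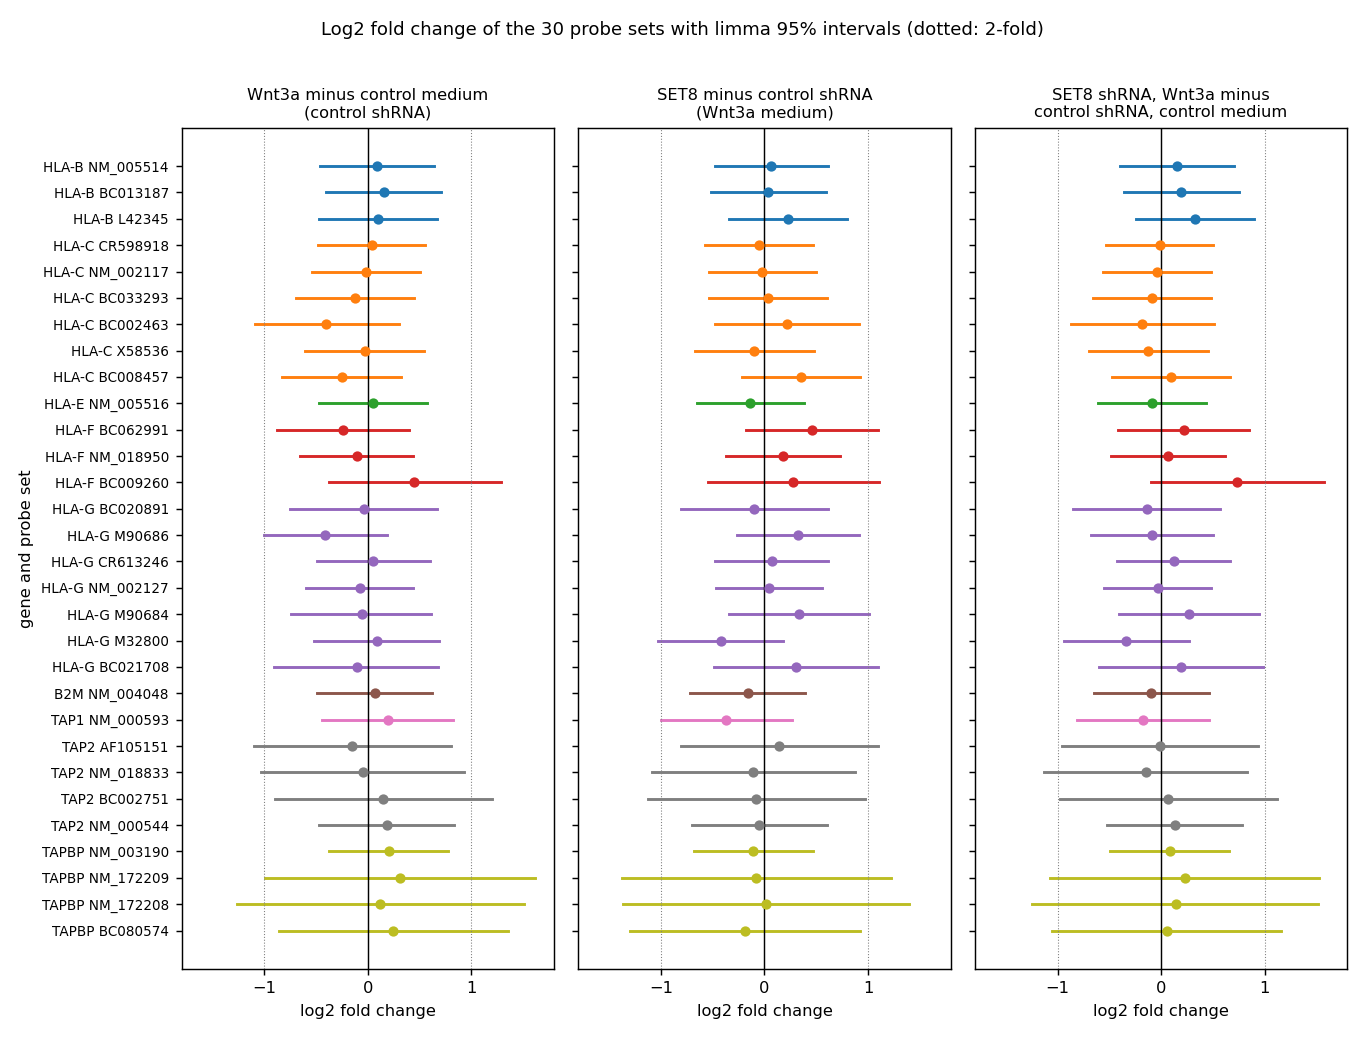
Log2 fold change (horizontal axes, points) with its 95% limma interval (bars) for the 30 probe sets of the 9 genes (vertical axis) in the 3 comparisons, coloured by gene. Every interval contains 0. The TAPBP sets other than NM_003190 have the widest intervals (-1.37 to 1.40 for NM_172208 in the SET8 comparison) and CR598918 of HLA-C the narrowest in the SET8 comparison (-0.57 to 0.47).

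Genes that act before and beside the loading complex were set next to the members, from fixed lists with 1 probe set a gene. The immunoproteasome subunits, which replace constitutive proteasome subunits under interferon and favour peptides that fit class I molecules, read lower with SET8 shRNA in part. By the brightest probe set, all 5 listed genes lay below 0 in the SET8 comparison, 2 of them at an unadjusted p under 0.05 and none at an adjusted p under 0.05, with a median of -0.62. PSMB9 read 10.82 and 11.70 in control medium, 10.81 and 11.69 in Wnt3a medium, and 9.88 and 9.68 with SET8 shRNA, so both SET8 arrays lay below all 4 others. Its difference was -1.47 (SE 0.39, adjusted p = 0.36, limma with Benjamini-Hochberg adjustment), and its other tested probe set gave -1.46. PSMB8 differed by -0.77 (SE 0.23, adjusted p = 0.44), though its other tested probe set by -0.19, and PSMB10 by -0.62 (SE 0.46). PSME2, a chain of the proteasome activator, differed by -0.47 (SE 0.28) on the probe set counted and by 0.01 on its other one.

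TAP1 and PSMB9 are neighbours transcribed away from each other, and their annotated starts lie 488 bases apart on GRCh38.p14. The window of TAP1 used here and that of PSMB9 share 13 bases. In the SET8 comparison TAP1 stood at -0.37 (SE 0.27) and PSMB9 at -1.47 (SE 0.39), and the difference between them was not tested. The TAP1 window holds 2 overlapping matches to the interferon-stimulated response element core, as shown in capitals before its start, and the PSMB9 window holds none. Those matches lie between the 2 starts, further from the PSMB9 start than the 250 bases its window covers. The windows therefore do not show that the element belongs to TAP1 alone.

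Several antiviral interferon-stimulated genes read lower with SET8 shRNA, and none passed an adjusted p of 0.05. Of 14 listed genes 7 were tested, the others being too dim. Of these 7, IFIT1, IFIT3 and OAS1 lay below the array median on both SET8 arrays and passed the filter only through control shRNA arrays, where they were higher, so the tested genes are a selection and a count of their directions carries no weight. The windows of IFIT1 and IFIT3 hold the interferon-stimulated response element core, and that of OAS1 holds no match to any of the 4 motifs as written. Variants of the core were not searched for in any window. IFIT1, which encodes a sensor of foreign RNA, read 7.91 and 8.38 in control medium, 8.37 and 8.03 in Wnt3a medium, and 6.08 and 6.10 with SET8 shRNA. Its difference was -2.11 (SE 0.26, adjusted p = 0.096, limma with Benjamini-Hochberg adjustment). IFIT3 differed by -1.68 (SE 0.28, adjusted p = 0.14) and IRF7, a transcription factor of the interferon response, by -1.47 (SE 0.37, adjusted p = 0.33), and OAS1 by -2.17 (SE 0.63, adjusted p = 0.42). IRF7, IFI6 (-1.19, SE 0.32), ISG15 (-0.80, SE 0.41) and OAS3 (0.86, SE 0.35), the last with the opposite sign, lay above the array median on all 6 arrays. Of the 5 members whose windows carry the same core as IFIT1, the SET8 intervals of B2M (-0.72 to 0.39) and of all 3 HLA-F sets (the lowest bound being -0.55) do not reach a 2-fold decrease, and that of TAP1 (-1.0 to 0.27) ends just short of one. For TAPBP this holds for NM_003190 (-0.68 to 0.47) but not for the other 3 sets, whose lower bounds are -1.38, -1.37 and -1.30. For TAP2 it holds for AF105151 (-0.81 to 1.10) and NM_000544 (-0.70 to 0.60) but not for NM_018833 (-1.09 to 0.87) and BC002751 (-1.13 to 0.97). The difference between the members and the antiviral genes was not tested.

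Regulators of class I transcription were mixed. Of 15 listed genes 14 were tested, with 7 above 0 and 7 below in the SET8 comparison and a median of 0.06. IRF9, a transcription factor of the type I interferon response, read 8.92 and 9.05 in control medium, 8.68 and 8.83 in Wnt3a medium, and 8.02 and 7.63 with SET8 shRNA. It was the only one of them at an unadjusted p under 0.05, with a difference of -0.92 (SE 0.24, adjusted p = 0.35, limma with Benjamini-Hochberg adjustment). STAT2 differed by -0.76 (SE 0.36). NLRC5, the transactivator of class I genes, differed by 0.45 (SE 0.23), with 7.60 and 7.89 under control shRNA and 8.21 and 8.19 under SET8 shRNA. RFXANK, a subunit of the RFX complex, differed by -0.47 (SE 0.26).

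Of 7 listed interferon receptor chains and kinases 6 were tested, 4 above 0 and 2 below, with none at an unadjusted p under 0.05 and a median of 0.26. The peptide trimming and folding genes (7 of 8 tested) had 5 above 0 and 2 below and a median of 0.16. LNPEP, an aminopeptidase, was the one at an unadjusted p under 0.05, at -0.57 (SE 0.24, adjusted p = 0.69, limma with Benjamini-Hochberg adjustment). ERAP2, which trims peptides in the endoplasmic reticulum, stood at 0.38 (SE 0.22), and the chaperone HSPA5 at 0.46 (SE 0.27). The 3 constitutive proteasome subunits all lay below 0, with a median of -0.15 and PSMB6 lowest at -0.56 (SE 0.26).

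In the Wnt3a comparison the immunoproteasome genes had a median of 0.05. None of them or of the antiviral genes passed an adjusted p of 0.05, and IFIT3 (-0.72, SE 0.28), which passed the filter through its control medium arrays, alone was at an unadjusted p under 0.05.

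**Figure D4:**
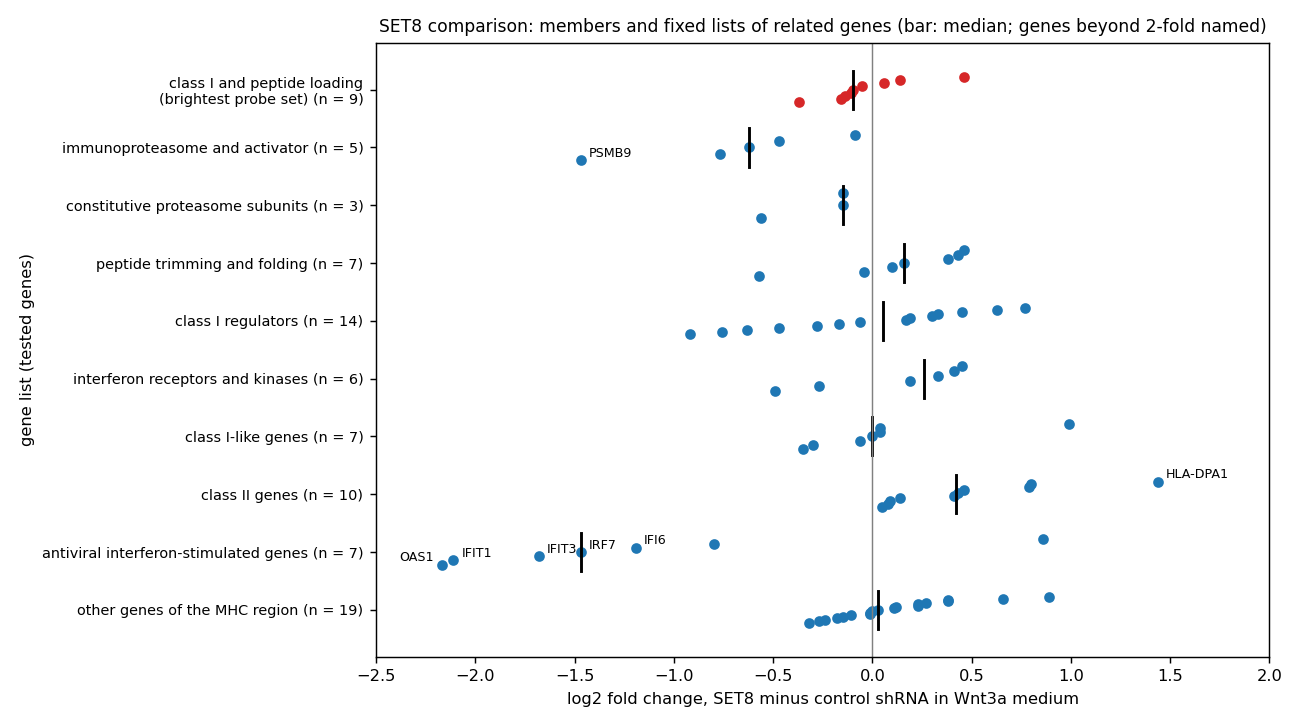
Log2 fold change between SET8 and control shRNA in Wnt3a medium (horizontal axis) of the 9 genes (red, brightest probe set) and of 9 fixed lists of related genes (blue, 1 probe set a gene; vertical axis), with the median of each list as a bar and genes beyond 2-fold named. The 9 genes lie between -0.37 and 0.46, while the immunoproteasome genes have a median of -0.62 and IFIT1 lies at -2.11, no gene shown passing an adjusted p of 0.05. IFIT1, IFIT3 and OAS1 passed the filter only through control shRNA arrays, so the bar of the antiviral list rests on a selection. HLA-G is shown by BC020891, its set of least certain name.

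Genes of the same chromosomal region and of related function served as a further comparison. Of 19 other genes of the MHC region 10 lay above 0 and 8 below in the SET8 comparison, with a median of 0.03 by 1 probe set a gene. The 9 members had a median of -0.10 counted in that way, which is the value of BC020891, the HLA-G set of least certain name. Over probe sets, the median was 0.02 for the 30 of the members and 0.01 for all tested. Of the 19 genes, VPS52 (0.89, SE 0.34) and RXRB (0.66, SE 0.26) were the 2 at an unadjusted p under 0.05. The class I-like genes (7 of 8 tested) had 3 above 0, 3 below and 1 at 0, with none at an unadjusted p under 0.05. ULBP1, a ligand of the NKG2D receptor, stood at 0.99 (SE 0.45). It read 7.86 and 6.74 in control medium, 7.47 and 6.96 in Wnt3a medium, and 7.77 and 8.64 with SET8 shRNA. Without the SET8 arrays ULBP1 would not have passed the filter, so its direction carries no weight.

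Across the 6 arrays the 9 genes, by their brightest probe sets, did not move as a block. Over the 36 pairs the median correlation was 0.03, from -0.88 (HLA-B with HLA-G, read by BC020891, its set of least certain name) to 0.92 (HLA-C with TAPBP). These points share arrays and normalisation and are only 6, so the correlations are a description. The mean of the standardised member profiles was 0.21 and -0.37 in control medium, 0.51 and -0.01 in Wnt3a medium, and 0.05 and -0.38 with SET8 shRNA, so replicate 1 was the higher array in every group. The genes with the profile most like it over the 6 arrays were FBRS (Pearson r = 0.998), EIF2B5 (0.994), ERAL1 (0.985), NUP62CL (0.982) and ATAT1 (0.982), chosen for this likeness from all tested genes.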

How the data were processed

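The authors deposited 1 linear intensity per probe set and array, summarised with RMA per the submitters' processing notes, whose version is not given in the sources used here. Per the file headers, positions are on hg18. Symbols were brought up to date by Entrez gene number through a RefSeq table (38916 probe sets, 86.4%, matched). The deposited intensities were taken to log2 without an offset. Probe sets above their array's median on at least 2 of 6 arrays were tested (23808), with limma 3.58.1 in R 4.3.3 (lmFit, eBayes) over 3 groups and 3 contrasts, and Benjamini-Hochberg adjustment over all of them, with a threshold of 0.05. The scripts were tested on simulated data. All groups share 1 estimate of spread. With 2 arrays against 2, an exact permutation test cannot give a p under 0.333, so none is reported. RMA usually makes the arrays' distributions alike, so a change shared by most genes would not show, and the number of arrays limits the precision.

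The planned fit assumed that the files might be scanner signals. They hold summarised values, so background correction was not repeated. Members and gene lists were chosen with earlier results of these data known. All 9 members and their probe sets are given, each by the probe set with the highest mean over the arrays. Up to 4 genes of each list with the smallest p in the SET8 comparison are named, and OAS1, ISG15, OAS3, HLA-DOA, HLA-DPB1, HLA-DMA, HLA-DRB1 and HLA-DMB were added after their values were seen. Motifs were searched on both strands of RefSeq promoter windows. Alternatives were other filters, an intensity trend, 4 arrays per fit, further normalisation, replicate blocks and leaving out each array.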

Additional observations from a re-analysis of the deposited data

How the results depend on the processing

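No probe set of the 9 genes was called under any setting run in any comparison. Over 27 values (9 genes in 3 comparisons) and 432 alternative values, 408 moved by less than 1 SD between replicates, 34 had the other sign, none of them called, and the largest shift was 0.52 on the log2 scale (0.20 when no array was left out). The smallest adjusted p of these was 0.35. The count of all probe sets called at an adjusted p under 0.05 (limma) depended on the setting. For Wnt3a, 0 became 2 with a filter at the 60th percentile, 2 with an intensity trend and 3 with the crossed pairing, and leaving out each array gave 0 to 0. For SET8, 0 became 15 with the trend, 28 with only the 4 arrays compared and 182 with the crossed pairing. Leaving out each array gave 0 to 31, with 31 without either control medium array and 8 without Wnt3a replicate 1. For the combined comparison, 12 became 0 without a filter, 52 with a filter at the 60th percentile, 31 with the trend, 230 with 4 arrays and 6 after quantile normalisation. Leaving out each array gave 0 to 274: 57 and 5 without control medium replicates 1 and 2, 274 and 235 without Wnt3a replicates 1 and 2, and 0 without either SET8 array, the lone array being assumed to vary like the other groups. The cause of these shifts was not tested.

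Same-numbered samples deviated together at a correlation of 0.75 between the media and -0.29 for both comparisons with SET8 shRNA, so the numbers are not taken to pair the samples. With the replicate number as a block 0, 0 and 0 probe sets were called, and the crossed pairing of SET8 arrays, chosen after seeing the data, gave 3, 182 and 792. Not run were normexp correction of scanner signals and a block for slide or scan, since the files used hold summarised values.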

Other observations

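Class II genes, whose products present peptides to helper T cells, were described beside the members. Of 12 listed genes 10 were tested. By 1 probe set a gene, all 10 lay above 0 in the SET8 comparison, with a median of 0.42, against 0.01 over all tested probe sets, 2 of them at an unadjusted p under 0.05 and none at an adjusted p under 0.05 (limma with Benjamini-Hochberg adjustment). Other tested probe sets lay below 0 for HLA-DPB1 (lowest -0.34), HLA-DMA (-0.23) and HLA-DRB1 (-0.06), and HLA-DOA passed the filter only through arrays in Wnt3a medium. In the Wnt3a comparison 9 of the 10 lay above 0, with a median of 0.12. HLA-DPA1 read 7.92 and 8.44 in control medium, 7.91 and 8.40 in Wnt3a medium, and 9.64 and 9.54 with SET8 shRNA, a difference of 1.44 (SE 0.29, adjusted p = 0.20, limma). HLA-DQA1 differed by 0.79 (SE 0.30) and CD74, the invariant chain, by 0.80 (SE 0.40). HLA-DMB, which edits the peptides of class II molecules, read 9.91 and 10.08 in control medium, 10.97 and 10.94 in Wnt3a medium, and 11.60 and 11.14 with SET8 shRNA. CIITA, the class II transactivator, and HLA-DRA were too dim to be tested. Which transcripts the class II probe sets read was not tested.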
